A study of Mus musculus with 12 samples.

Results

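The genes described here are 9 transcripts seldom discussed in T cell biology that had shifted between same-numbered arrays of 2 genotypes of mouse CD4 T cells: Pdlim1, Synpo, Cytip, Gypc, Lhfpl2, Tmem154, Trib2, Ercc6l2 and Xpc. They are 9 of 17759 genes with a probe of a single symbol on the arrays, and each is represented by the brightest of its probes, judged by the mean of 12 arrays. The genes were chosen by their measured differences between same-numbered CKO and Ctrl arrays, so those differences are described with no test, and nothing rests on them. The comparison that the choice did not use, Treg against Teff averaged over the genotypes, is tested further on.

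RNA was hybridised to 12 Illumina mouse arrays, 3 for each of 4 groups, and values are log2 intensities as deposited. The groups were Treg (CD4+Foxp3+, labelled pTreg) and Teff (effector cells, CD4+Foxp3-), each from Blimp1-deficient cells (arrays labelled Blimp1 CKO, here CKO) and from Blimp1-sufficient cells (arrays labelled Ctrl). All groups shared a C57BL/6 background with an age label of 8 to 12 weeks, a green fluorescent Foxp3 reporter, and an origin as naive CD4+CD44low cells. Donor cells of both genotypes, told apart by an allotype marker, were given in equal numbers to RAG1-/- mice, which lack their own T and B cells but keep innate cells. Sorting followed 6 to 8 weeks later. Spleen, mesenteric lymph node and colonic lamina propria cells were pooled and stimulated for 4 h with PMA and ionomycin in every group. Which allele and Cre driver stand behind the CKO label is not stated. Nothing in the labels says that replicates came from separate animals, so every p-value measures only the spread between these samples, which may be technical, and 3 arrays per group limit the precision. In sorted bulk RNA, fewer cells of a type and less RNA per cell cannot be told apart.

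Blimp1, encoded by Prdm1, is a zinc finger transcriptional regulator, mostly a repressor, that acts late in the differentiation of effector and regulatory lymphocytes. The 9 genes fall into several kinds by their known roles. Pdlim1, Synpo and Gypc encode proteins that tie membranes or actin fibres to the cytoskeleton, and Cytip encodes a regulator of integrin adhesion. Lhfpl2 and Tmem154 encode membrane proteins of little-known function, Trib2 encodes a pseudokinase, and Ercc6l2 and Xpc encode DNA repair proteins.

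The labels were checked first on the targeted gene and on the sort. Prdm1 averaged 9.04 ± 0.52 in CKO Treg and 5.77 ± 0.50 in Ctrl Treg, and 8.26 ± 0.64 in CKO Teff and 4.92 ± 0.41 in Ctrl Teff (log2 intensity, SD, n = 3 each). Its signal was thus higher on the arrays labelled CKO, and since the labels do not place the probe relative to the deleted part, it cannot serve as a check of genotype. Every genotype direction below compares arrays by these labels. Foxp3 averaged 8.05 in CKO Treg, 8.02 in Ctrl Treg, 4.64 in CKO Teff and 4.58 in Ctrl Teff, which separated the sorted populations. Of 7 T cell markers 6 had a probe, and Cd3d, Cd3e, Cd3g and Thy1 were far above every array median in all 4 groups, with group means of 10.8 or more. Cd28 averaged 9.32 in CKO Treg, 9.21 in Ctrl Treg, 7.93 in CKO Teff and 8.71 in Ctrl Teff. Cd4, which the sort used, was far dimmer, with group means between 5.44 in CKO Treg and 5.97 in Ctrl Teff. Array medians lay between 4.66 and 4.68. All 9 genes passed the filter on dim probes, and their main probes were above the array median on 12 of 12 arrays.

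Across the 6 same-numbered pairs, 3 of Treg and 3 of Teff, 5 of the 9 genes were higher on the CKO array of every pair and 4 were lower. Synpo, Pdlim1, Ercc6l2, Lhfpl2 and Gypc were the higher genes, and Cytip, Tmem154, Trib2 and Xpc the lower ones. For comparison, 6.68% of the 12119 genes tested had all 6 differences in 1 direction, a share from which nothing is read because these differences chose the members. CKO and Ctrl arrays were fully apart for 8 of the 9 genes in Treg, where the share over all genes was 12.3%, and for 5 of the 9 in Teff, where it was 6.77%. The median size of the difference over the 9 genes was 1.72 in Treg and 0.87 in Teff on the log2 scale, beside 0.12 in both cell types over all genes tested. By size, Synpo ranked 4 among the 12119 genes in Treg, Pdlim1 12 and Ercc6l2 14, while Xpc ranked 2680.

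**Figure D1:**
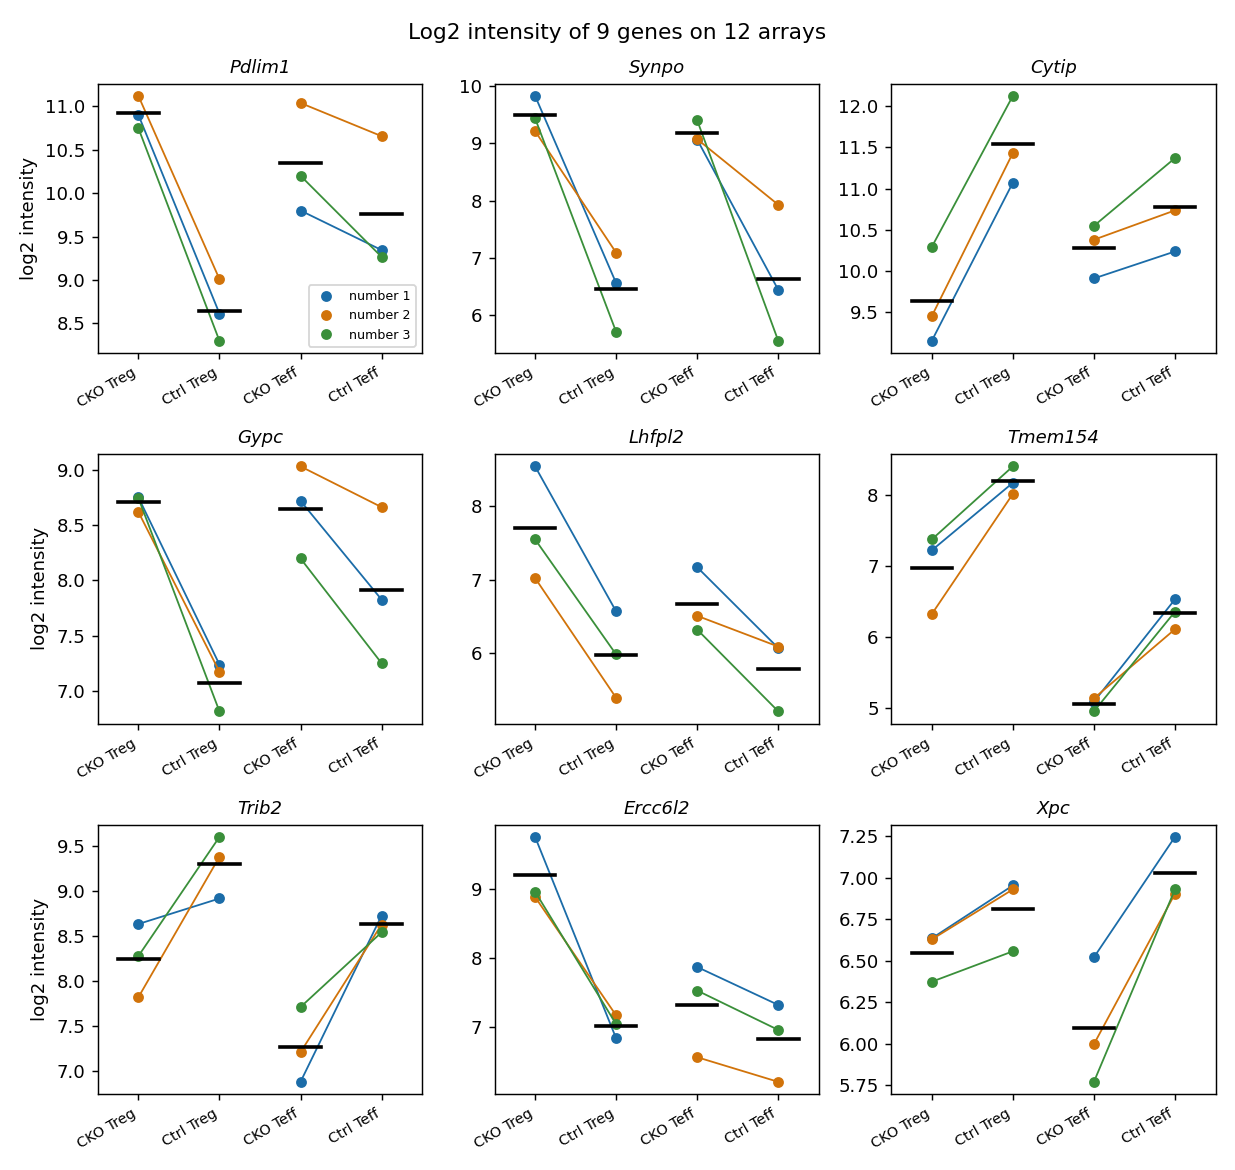
Log2 intensity (y axis) of the main probe of each of the 9 genes in CKO Treg, Ctrl Treg, CKO Teff and Ctrl Teff (x axis). Points are arrays, coloured by replicate number, thin lines join same-numbered CKO and Ctrl arrays, and black bars are group means of 3. Every line of a gene slopes the same way in both cell types.

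Synpo had the largest differences of the 9 genes. It encodes synaptopodin, an actin-associated protein known from kidney podocytes and dendritic spines. Its log2 intensity on probe ILMN_2422982 was 9.82, 9.21 and 9.43 in CKO Treg, against 6.56, 7.09 and 5.71 in Ctrl Treg. In CKO Teff it was 9.06, 9.07 and 9.40, against 6.45, 7.93 and 5.56 in Ctrl Teff. The groups did not overlap in either cell type, and the Ctrl arrays had a wider spread than the CKO arrays. The mean difference was 3.03 ± 0.83 in Treg (SD of 3 pairs), an 8.19-fold higher signal, and 2.53 ± 1.35 in Teff, a 5.79-fold higher one. Among the Teff pairs the difference was lowest in pair 2, at 1.14 beside 2.62 and 3.84, and without it the mean was 3.23. A second probe, ILMN_1217858, stayed near the array medians, between 4.42 and 4.73 on all arrays, with mean differences of 0.08 in Treg and 0.11 in Teff, so the Synpo shift was seen on 1 probe. With the mean of both probes the differences were 1.56 in Treg and 1.32 in Teff.

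Pdlim1 encodes a PDZ and LIM domain protein that binds alpha-actinin on actin stress fibres. It stood at 10.90, 11.12 and 10.75 in CKO Treg, against 8.61, 9.01 and 8.30 in Ctrl Treg, on its single probe ILMN_1234072. The 2 Treg groups were well apart, with 1.74 between the lowest CKO and the highest Ctrl array. Its Teff values were 9.80, 11.04 and 10.20 in CKO, against 9.34, 10.66 and 9.27 in Ctrl. Those Teff groups overlapped, because the arrays numbered 2 were the highest of both genotypes. The mean pair difference was 2.28 ± 0.17 in Treg and 0.59 ± 0.30 in Teff (SD, n = 3 pairs each).

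Gypc encodes glycophorin C, which anchors the red cell membrane to protein 4.1 of the membrane skeleton. Its probe ILMN_1218358 read 8.75, 8.62 and 8.74 in CKO Treg, against 7.24, 7.17 and 6.82 in Ctrl Treg. In CKO Teff it read 8.72, 9.03 and 8.20, against 7.83, 8.66 and 7.25 in Ctrl Teff. As for Pdlim1, Treg groups did not overlap and Teff groups did, with Teff number 2 the highest array of each genotype. The mean difference was 1.63 ± 0.26 in Treg and 0.73 ± 0.32 in Teff. Of the 4 erythroid markers with a probe, 0 had a higher mean in CKO Treg and 1 had in CKO Teff. The mean of that list was 5.01 to 5.45 in CKO Treg, 5.08 to 5.90 in Ctrl Treg, 4.83 to 6.07 in CKO Teff and 4.65 to 6.38 in Ctrl Teff.

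Cytip, the adhesion regulator, went the other way. Its product binds cytohesin-1 and restrains adhesion through the integrin LFA-1 in dendritic cells and T cells. On probe ILMN_1251748 Cytip was at 9.15, 9.45 and 10.29 in CKO Treg, against 11.07, 11.43 and 12.12 in Ctrl Treg. Teff values were 9.91, 10.38 and 10.55 in CKO and 10.24, 10.73 and 11.37 in Ctrl. The Treg groups were separate and the Teff groups overlapped. Same-numbered Treg arrays differed by -1.92, -1.98 and -1.83, a mean of -1.91 ± 0.07, which with that of Xpc is the smallest SD of the 9 genes in Treg. In Teff the mean was -0.50 ± 0.28.

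**Figure D2:**
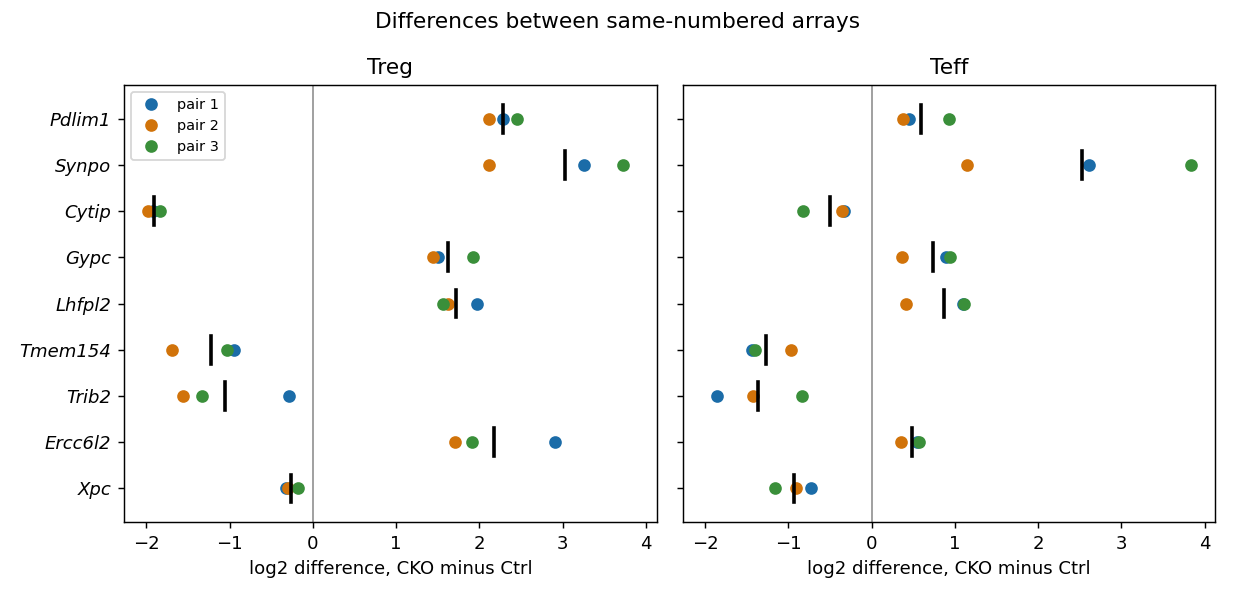
Log2 difference CKO minus Ctrl (x axis) of the 9 genes (rows) in Treg (left) and Teff (right). Points are the 3 same-numbered pairs, black ticks their mean, and the grey line marks no difference. No point of any gene crosses the grey line. Pdlim1, Cytip and Ercc6l2 lie farther from it in Treg than in Teff, and Xpc lies farther from it in Teff.

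Lhfpl2 encodes a tetraspan membrane protein of the LHFPL family. It was at 8.54, 7.02 and 7.55 in CKO Treg, against 6.57, 5.40 and 5.98 in Ctrl Treg, on its single probe ILMN_2721357. In CKO Teff it was at 7.17, 6.51 and 6.32, against 6.07, 6.09 and 5.21 in Ctrl Teff. Neither pair of groups overlapped, although the lowest CKO Teff array lay only 0.23 above the highest Ctrl Teff array. Mean differences were 1.72 ± 0.22 in Treg and 0.87 ± 0.40 in Teff.

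Tmem154 encodes a single-pass membrane protein whose variants are linked to lentivirus susceptibility in sheep. It read 7.22, 6.32 and 7.38 in CKO Treg, against 8.17, 8.02 and 8.40 in Ctrl Treg, on its single probe ILMN_1237114. In CKO Teff it read 5.09, 5.14 and 4.96, against 6.53, 6.11 and 6.36 in Ctrl Teff. By mean the order was Ctrl Treg, CKO Treg, Ctrl Teff and CKO Teff, and of these neighbours CKO Treg and Ctrl Teff overlapped, through CKO Treg 2. The mean difference was -1.22 ± 0.41 in Treg and -1.27 ± 0.26 in Teff. CKO Teff lay close to the array medians.

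Trib2 encodes a Tribbles pseudokinase that steers C/EBP-alpha to degradation through the ubiquitin ligase COP1. Its probe ILMN_2432550 read 8.63, 7.82 and 8.28 in CKO Treg, against 8.92, 9.38 and 9.60 in Ctrl Treg. In CKO Teff it read 6.87, 7.21 and 7.71, against 8.73, 8.63 and 8.54 in Ctrl Teff. Groups were separate in both cell types. The Treg pairs were uneven, with -0.28 in pair 1 beside -1.56 and -1.33, for a mean of -1.06 ± 0.68. The Teff mean was -1.37 ± 0.51. A second probe, ILMN_1243319, was above the median on 5 of 12 arrays and had mean differences of -0.16 in Treg and -0.09 in Teff. With the mean of both probes the differences were -0.61 in Treg and -0.73 in Teff.

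Ercc6l2 encodes a SNF2-family helicase-like protein, related to the transcription-coupled repair factor ERCC6, whose loss causes bone marrow failure in humans. On probe ILMN_2816547 it was at 9.75, 8.88 and 8.96 in CKO Treg, against 6.84, 7.17 and 7.04 in Ctrl Treg. Its Teff values were 7.87, 6.57 and 7.53 in CKO and 7.32, 6.21 and 6.96 in Ctrl. CKO Treg stood above the other 3 groups, whose values overlapped each other. The mean difference was 2.18 ± 0.64 in Treg, a 4.53-fold higher signal, and 0.49 ± 0.12 in Teff.

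Ercc6l2 was the only member with 4 probes, to which the platform annotation assigns different RefSeq transcripts. Probes ILMN_2816547 and ILMN_1246247, given to 1 transcript, had Treg differences of 2.18 ± 0.64 and 2.14 ± 0.36. Probes ILMN_1259789 and ILMN_2816356, given to another, had 1.12 ± 0.62 and 0.77 ± 0.64. The latter probes were also dimmer, with means over 12 arrays of 5.45 and 5.08, beside 7.59 and 6.45 for the former. Their Ctrl Treg means, 5.01 and 4.79, were close to the array medians. Transcript and brightness therefore cannot be told apart here. CKO and Ctrl Treg did not overlap on any of the 4 probes. In Teff the 4 differences were 0.49, 0.34, -0.13 and 0.25 in the same order, and the groups overlapped on all 4. With the mean of its probes, the difference of Ercc6l2 was 1.55 in Treg and 0.24 in Teff.

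**Figure D3:**
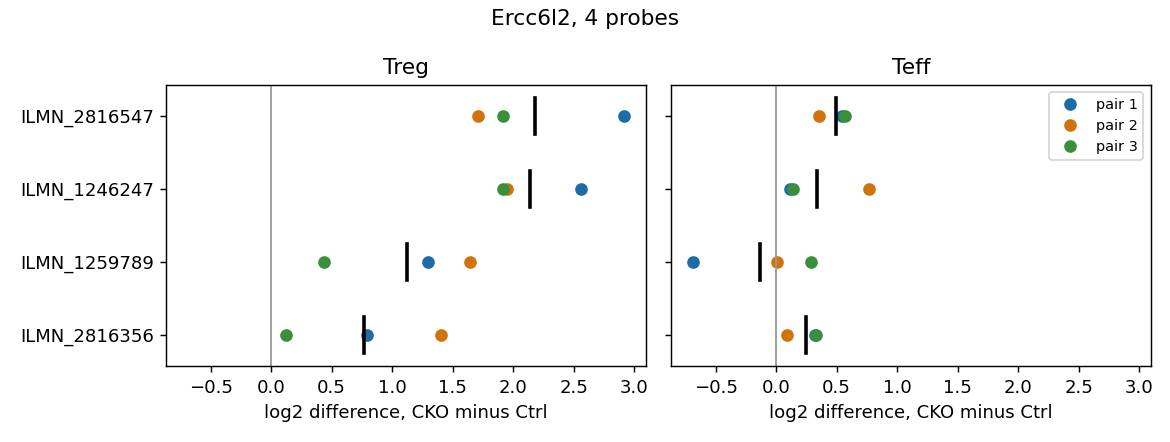
Log2 difference CKO minus Ctrl (x axis) on the 4 Ercc6l2 probes (rows) in Treg (left) and Teff (right). Points are same-numbered pairs and black ticks their mean. All 12 Treg points lie above 0, while the Teff means lie between -0.13 and 0.49.

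Xpc encodes the sensor that recognises distorted DNA in global genome nucleotide excision repair. On probe ILMN_1230273 it was at 6.64, 6.63 and 6.37 in CKO Treg, against 6.95, 6.93 and 6.56 in Ctrl Treg. In CKO Teff it was at 6.52, 6.00 and 5.77, against 7.25, 6.90 and 6.93 in Ctrl Teff. The Treg groups overlapped and the Teff groups did not. Mean differences were -0.27 ± 0.07 in Treg and -0.93 ± 0.22 in Teff. A second probe, ILMN_1238384, lay near the array medians and had differences of 0.04 and 0.02, so the Xpc shift was also seen on 1 probe. With the mean of both probes the differences were -0.12 in Treg and -0.45 in Teff.

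The size of the genotype difference varied between cell types. For 6 of the 9 genes the 3 Treg differences did not overlap the 3 Teff differences, beside 15.7% of all genes tested, and nothing is read from this count either, since both contrasts chose the members. Pdlim1, Cytip, Gypc, Lhfpl2 and Ercc6l2 had the larger difference in Treg and Xpc had it in Teff. Tmem154, Trib2 and Synpo had overlapping differences in the 2 cell types. Tmem154 was the most even, with a Treg minus Teff difference of 0.05. For 6 of the 9 genes the smallest of the 3 Teff differences was that of pair 2. This was not counted over all genes, so it is not read as a trait of these genes.

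Transcripts of other cells varied between the arrays, those of neutrophils in Treg as well as in Teff, and they are given beside these values. Of the neutrophil list, 11 of 12 markers had a probe, and their mean level was 6.21 to 8.83 in CKO Treg, 6.51 to 9.74 in Ctrl Treg, 7.47 to 10.07 in CKO Teff and 6.56 to 10.65 in Ctrl Teff. All 11 of 11 had a higher group mean in CKO Teff than in Ctrl Teff, and 2 of 11 in CKO Treg than in Ctrl Treg. The Teff pairs did not all go this way. The list mean was 9.62, 10.07 and 7.47 in CKO Teff 1, 2 and 3, against 8.50, 10.65 and 6.56 in Ctrl Teff. In pair 2 it was thus lower on the CKO array. Of the myeloid and antigen presenting list, 10 of 11 were higher in CKO Teff and 4 of 11 in CKO Treg, and the mean level was 6.67 to 7.05 in CKO Treg, 6.13 to 7.40 in Ctrl Treg, 6.82 to 8.47 in CKO Teff and 5.60 to 7.85 in Ctrl Teff. The 7 basophil and mast cell markers had a mean of 4.64 to 5.22 in CKO Treg, 4.57 to 5.26 in Ctrl Treg, 4.97 to 9.22 in CKO Teff and 4.55 to 5.67 in Ctrl Teff, with Ms4a2 under the median on all arrays. The 9 CD8 and NK markers had a mean of 5.08 to 5.42 in CKO Treg, 5.21 to 5.53 in Ctrl Treg, 5.77 to 7.46 in CKO Teff and 5.53 to 5.71 in Ctrl Teff, with Cd8a and Ncr1 under the median on all arrays. Cd8b1, the CD8 beta chain, was well above the median in every group, at 9.44 in CKO Treg, 9.69 in Ctrl Treg, 9.22 in CKO Teff and 9.40 in Ctrl Teff. The NK receptor genes Klra7, Klre1 and Klrd1 averaged 8.28 ± 2.53, 8.29 ± 2.06 and 8.88 ± 1.35 in CKO Teff (SD of 3 arrays). They averaged 4.98, 5.75 and 7.88 in Ctrl Teff, and lay between 4.96 and 5.44 in both Treg groups. Klrk1 and Klra1 averaged 5.90 and 5.26 in CKO Teff, against 4.71 and 4.55 in Ctrl Teff. Klrb1c stayed near the median, at 4.66 in CKO Teff and 4.56 in Ctrl Teff. Ncr1 was lower in CKO Teff, at 4.40 against 4.56. The 3 B cell markers with a probe stayed between 4.49 and 4.72. The part of these cells in the values of the 9 genes was not tested.

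Treg against Teff, averaged over the genotypes, is the comparison that the choice of genes did not use. Same-numbered CKO and Ctrl arrays of a cell type were averaged first, which left 3 Treg and 3 Teff values. Tmem154 was higher in Treg, at 7.70, 7.17 and 7.89, against 5.81, 5.63 and 5.66 in Teff. The difference was 1.89 ± 0.20 on the log2 scale (SE, 95% interval 1.41 to 2.37, limma, adjusted p = 0.0357), and the groups did not overlap. It was of like size on each genotype's arrays, 1.91 in CKO and 1.86 in Ctrl. Of the 9 genes, 1 passed, against 0.396% of all genes tested (48 of 12119). By limma 3 of the 9 had an unadjusted p under 0.05, as did 1140 of the 12119 genes tested. The call for Tmem154 was lost without Treg pair 1, 2 or 3 (adjusted p = 0.181, 0.0779 and 0.0925) and without Teff pair 1 or 2 (0.160 and 0.0794). Over its 15 alternatives the limma adjusted p ran from 0.00049 to 0.181 and passed in 9.

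Trib2 and Ercc6l2 were also apart between the cell types without passing. Trib2 was at 8.78, 8.60 and 8.94 in Treg, against 7.80, 7.92 and 8.12 in Teff, a difference of 0.82 ± 0.14 (SE, limma, adjusted p = 0.104, 0.0379 to 0.377 over its alternatives). Ercc6l2 was at 8.29, 8.03 and 8.00 in Treg, against 7.60, 6.39 and 7.24 in Teff, a difference of 1.03 ± 0.31 (limma, adjusted p = 0.350, 0.0648 to 0.719 over its alternatives). Treg and Teff did not overlap for either gene. With the mean of the probes the differences were 0.47 for Trib2 and 0.52 for Ercc6l2. The Ercc6l2 difference was 1.88 on the CKO arrays and 0.19 on the Ctrl arrays, a split that follows from the genotype differences and was not tested.

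For the other 6 genes Treg and Teff overlapped. How many of all genes tested overlapped in this comparison was not counted, so nothing is read from the number of members apart. Lhfpl2 had a difference of 0.61 (95% interval -0.32 to 1.55), Gypc of -0.39 (95% interval -1.07 to 0.29) and Pdlim1 of -0.27 (95% interval -1.14 to 0.60). Xpc stood at 0.12 (-0.31 to 0.55), Synpo at 0.06 (-0.68 to 0.81) and Cytip at 0.06 (-0.78 to 0.90). These intervals leave room for a 1.5-fold change or more in some direction for Lhfpl2, Gypc, Pdlim1, Synpo and Cytip. The sign turned without Teff pair 2 for Pdlim1 (0.13), without Treg pair 3 or Teff pair 1 for Cytip (-0.25 and -0.17) and in 4 of 6 such fits for Synpo. The median over the 9 genes was 0.12, beside 0.02 over all genes tested.

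**Figure D4:**
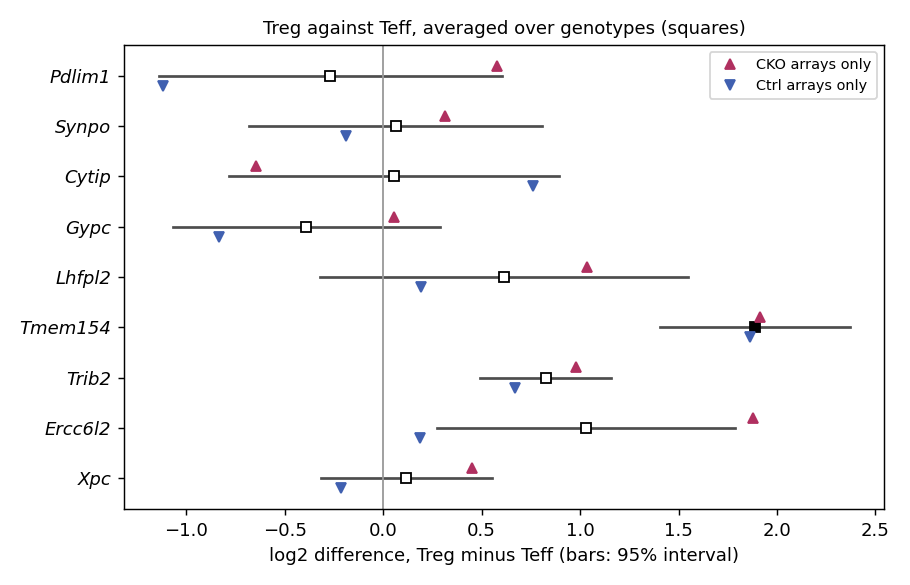
Log2 difference Treg minus Teff (x axis) of the 9 genes (rows). Squares are the difference averaged over genotypes with its 95% interval, filled where the limma adjusted p passed 0.05, and triangles give the CKO and the Ctrl arrays alone. Tmem154 at 1.89 is the filled square, and its triangles nearly coincide.

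Over the 12 arrays the genes higher and those lower on the CKO arrays were opposed to unequal extents. Pearson correlations between the 36 pairs of genes are given as a description, since same-numbered arrays deviated together and the genes were chosen for genotype differences. Pdlim1 and Gypc were the closest pair (r = 0.93), followed by Gypc and Synpo (0.88), Tmem154 and Trib2 (0.87), Pdlim1 and Synpo (0.85) and Lhfpl2 and Ercc6l2 (0.81). The most opposed pair was Cytip and Gypc (-0.82). Ercc6l2 and Tmem154 (0.09) and Lhfpl2 and Tmem154 (-0.05) were hardly related, and Cytip and Xpc, both lower genes, only weakly (0.17). The highest correlation of Xpc with another member was 0.58, with Trib2.

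**Figure D5:**
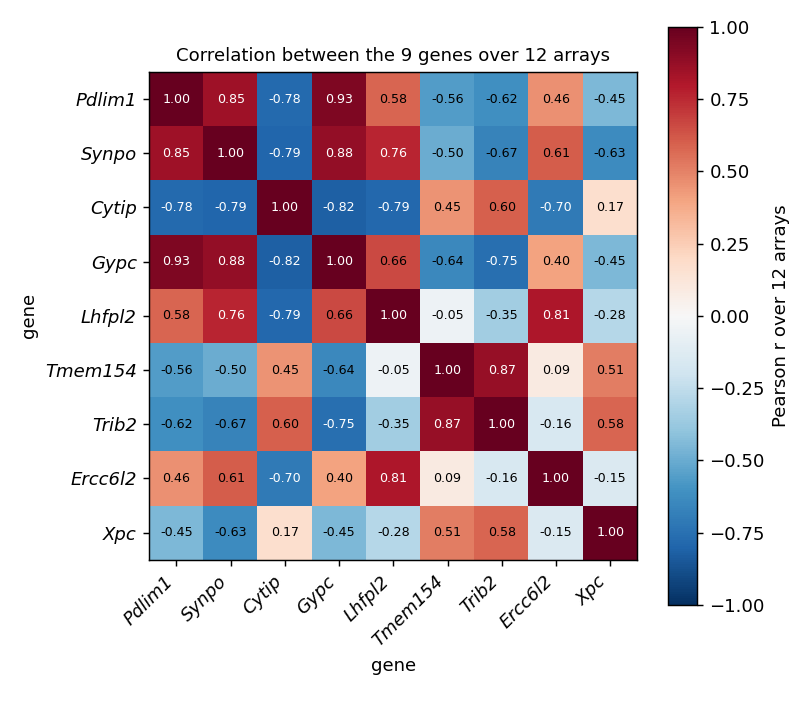
Pearson correlation over 12 arrays between the 9 genes (both axes), from -1 (blue) to 1 (red). Pdlim1, Synpo and Gypc form a block of 0.85 to 0.93, and Cytip is at -0.70 or lower with all 5 genes that were higher on the CKO arrays.

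The 2 tested genes most like each member over the 12 arrays were found by the same correlation. Pdlim1 and Gypc shared Tespa1, a regulator of T cell receptor signalling in thymocytes (r = 0.94 and 0.90), and each had the other as its second or first match. Synpo was most like Lif, a cytokine of the interleukin 6 family (0.92), and Prdm1 itself (0.90). Cytip was most like Rab27a, a GTPase of secretory granule docking (0.92), and Npc2, a lysosomal cholesterol carrier (0.91). Lhfpl2 was most like Tox, a nuclear factor of T cell development and exhaustion (0.88), and the glycolytic enzyme gene Pfkp (0.87). Ercc6l2 was most like Adh5, which detoxifies formaldehyde (0.88), and Pabpc4, a poly(A)-binding protein (0.88). Tmem154 was most like Ppp1r3f and the calcineurin regulator gene Rcan3 (0.93 and 0.92), and Trib2 like Tmem154 and Tmem81 (0.87 and 0.85). Xpc was most like Exd2, an exonuclease of DNA end resection (0.92), and Primpol, a primase-polymerase of replication restart (0.86).

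Relatives and partners of the members were read from lists that hold none of the 9 genes. Of 77 listed genes in 7 lists 55 were tested, and by limma 0 of them passed between the genotypes in Treg and 0 in Teff, where 0.099% and 0.0165% of all genes did. At an unadjusted p under 0.05 there were 5 in Treg and 2 in Teff. The share of all genes at that level was not counted, so nothing is read from these counts. With same-numbered arrays as pairs, 4 of the 55 fell in Treg, beside 2.18% of all genes, and 0 passed in Teff, beside 0.099%.

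The 4 were relatives of Cytip, Pdlim1 and Gypc. Cyth3, a cytohesin, was at 6.85 in CKO Treg and 7.61 in Ctrl Treg, a difference of -0.76 ± 0.11 with pairs (SE, as for the next 3 genes, limma, adjusted p = 0.0136, and 0.238 without pairs). Icam1, which encodes a ligand of LFA-1, was at 7.83 and 8.85 in the same order (-1.02 ± 0.19, adjusted p = 0.0334 with pairs by limma, 0.888 without). Pdlim2, which promotes the degradation of nuclear STAT4 and p65, was at 7.89 and 8.58 (-0.69 ± 0.14, adjusted p = 0.0449 with pairs by limma, 0.906 without). Pdlim2 and Pdlim1 thus lay on opposite sides of 0 in Treg, although CKO and Ctrl Treg arrays overlapped for Pdlim2. Add1, an adducin that caps actin at the membrane skeleton, was at 8.17 and 8.78 (-0.61 ± 0.13, adjusted p = 0.0480 with pairs by limma, 0.805 without). In Teff, where none of these genes passed, the differences were -0.32 for Cyth3, 0.52 for Icam1, 0.27 for Pdlim2 and 0.002 for Add1.

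By list, the 10 cytohesin and LFA-1 adhesion genes tested had a median of -0.36 in Treg and -0.16 in Teff, with 3 of 10 above 0 in each. Itgb2, the LFA-1 beta chain, stood at -0.52 in Teff (limma, adjusted p = 1.00 without pairs and 0.211 with them). The 10 PDZ-LIM and alpha-actinin genes had medians of -0.10 and 0.04, and Actn2, an alpha-actinin, stood at -1.39 in Teff (limma, adjusted p = 1.00, and 0.102 with pairs). The 14 excision repair genes had medians of 0.10 and -0.04, and Ercc3 and Gtf2h4, both of the repair helicase complex TFIIH, had the smallest p without passing. The 7 membrane skeleton genes had medians of -0.17 and -0.01. The 6 Tribbles partners (0.02 and -0.09), the 5 synaptopodin relatives and actin partners (-0.05 and -0.02) and the 3 LHFPL genes (-0.02 and -0.07) were close to the median of all genes, which was 0.00 in Treg and -0.02 in Teff. Map2k4 and Cop1, Actb and Magi1, and Lhfp and Lhfpl3 had the smallest p in these last 3 lists, and none passed. Between Treg and Teff 0 of the 55 passed by limma, with 8 at an unadjusted p under 0.05. Of the 12119 genes tested, 48 passed and 1140 had an unadjusted p under 0.05.

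Promoter windows of the members were read to see whether they share the letters of the core bound by Blimp1 family factors, GAAAG, or the longer GNGAAAG that contains it. RefSeq windows on build GRCm38.p6, from 250 bases before to 50 after the annotated start, were read for 6 of the 9 genes. These were Cytip, Tmem154, Trib2, Ercc6l2, Lhfpl2 and Pdlim1. None was read for Gypc, Synpo and Xpc. Member windows on a chromosome set aside by rule were left out, so a gene not read here may still have a window. The shares over all windows kept that chromosome. GAAAG occurred on either strand in 2 of the 6, Pdlim1 and Ercc6l2, beside 57.3% of the 32841 windows of this length in the table. GNGAAAG occurred in 0 of the 6, beside 22.6% of all windows. A match describes these letters and is not a site, and a window without one says nothing of the factor. Windows of 2 genes higher on the CKO arrays, Pdlim1 (chr19:40271567-40271866, minus strand) and Ercc6l2 (chr13:63814990-63815289, plus strand), and of 2 lower ones, Cytip (chr2:58160073-58160372, minus strand) and Tmem154 (chr3:84665942-84666241, plus strand), are shown because they carry the matches or stand for the opposite direction. Lhfpl2, also higher on the CKO arrays, and Trib2, a lower gene, had no match and are not shown. The windows shown therefore do not tie the letters to a direction. Capitals mark GAAAG, or CTTTC where it lies on the other strand.
Pdlim1: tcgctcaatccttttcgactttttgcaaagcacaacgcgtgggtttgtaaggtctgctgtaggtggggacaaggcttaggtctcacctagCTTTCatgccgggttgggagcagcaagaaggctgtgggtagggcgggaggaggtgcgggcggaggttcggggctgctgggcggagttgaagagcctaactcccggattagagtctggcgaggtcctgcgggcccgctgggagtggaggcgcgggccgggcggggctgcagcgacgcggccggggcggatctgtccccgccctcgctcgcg
Ercc6l2: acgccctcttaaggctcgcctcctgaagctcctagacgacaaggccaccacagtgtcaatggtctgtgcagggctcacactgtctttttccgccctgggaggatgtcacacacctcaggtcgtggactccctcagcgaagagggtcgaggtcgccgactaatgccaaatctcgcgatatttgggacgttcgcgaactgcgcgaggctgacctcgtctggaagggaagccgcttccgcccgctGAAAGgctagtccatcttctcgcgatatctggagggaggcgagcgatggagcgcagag
Cytip: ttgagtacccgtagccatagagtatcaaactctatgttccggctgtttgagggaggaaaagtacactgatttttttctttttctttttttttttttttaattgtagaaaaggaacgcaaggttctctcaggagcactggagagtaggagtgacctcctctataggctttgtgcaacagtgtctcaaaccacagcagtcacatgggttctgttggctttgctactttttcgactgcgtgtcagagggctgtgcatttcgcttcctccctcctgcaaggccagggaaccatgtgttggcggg
Tmem154: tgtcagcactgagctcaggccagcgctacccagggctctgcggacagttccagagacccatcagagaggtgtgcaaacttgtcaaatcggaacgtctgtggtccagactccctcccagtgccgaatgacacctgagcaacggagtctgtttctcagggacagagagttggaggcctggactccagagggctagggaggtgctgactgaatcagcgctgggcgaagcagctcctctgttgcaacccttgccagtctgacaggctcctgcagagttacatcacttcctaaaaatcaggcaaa
The Pdlim1 match begins 160 bases before the annotated start and reads on the opposite strand, and the Ercc6l2 match begins 8 bases before it. Base composition differed widely between the 6 windows, with 46.0% G and C in Cytip and 79.3% in Lhfpl2, beside a median of 52.7% over all windows.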

How the data were processed

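RNA of 12 samples was labelled with biotin and measured on Illumina arrays. The deposited log2 intensities were used unchanged, and their scale was read from their range. Per the submitters' processing notes, the tools were GenomeStudio and limma 3.30.11, with the background correction, normalization and probe filter not given in the sources used here.

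Of 31641 probes, 28197 had 1 gene symbol in the platform annotation, 5 several and 3439 none. Probes above the array median on at least 3 arrays were kept (17579), with the brightest per gene, which gave 12119 genes. Treg against Teff was tested by lmFit and eBayes of limma 3.58.1 (R 4.3.3) on the means of same-numbered CKO and Ctrl arrays, and the genotypes on 12 arrays for genes other than the members. All tests were two-sided, with Benjamini-Hochberg adjustment over all genes and a threshold of 0.05. The fits were tested on simulated data. The random block used statmod 1.5.0, and tables were read with data.table (version 1.17.8).

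The members, gene lists and tests were chosen with earlier results of these data known. Named genes were the 9 members, list genes that passed a genotype contrast with or without pairs, otherwise up to 2 per list with the smallest p, the 2 genes closest to each member by correlation with clone names left out, and Prdm1 and Foxp3. Genes that are markers, and Itgb2 and Actn2, were named after their values were seen.

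Replicate numbers were checked by correlating residuals across genes. Same-numbered CKO and Ctrl arrays correlated at 0.519 to 0.589 in Treg and 0.348 to 0.737 in Teff, so they were treated as pairs, which may share hosts. Treg and Teff pair means of the same number correlated at -0.132 to 0.359 and were not treated as pairs. Alternatives covered normalization, the filter, the choice of probe, eBayes settings, blocks and leaving out arrays.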

Additional observations from a re-analysis of the deposited data

Results flagged for a closer look

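The mean difference between Treg and Teff had opposite signs on the CKO and the Ctrl arrays for 5 of the 9 genes. For 2 of them, Pdlim1 and Xpc, every Treg array also lay on that side of the Teff mean of its own genotype. All 3 CKO Treg arrays were above the CKO Teff mean of Pdlim1, by 0.58 on average, and all 3 Ctrl Treg arrays were below the Ctrl Teff mean, by -1.12 on average. For Xpc the same differences were 0.45 on the CKO arrays and -0.21 on the Ctrl arrays. For Cytip (-0.65 on the CKO arrays, 0.76 on the Ctrl arrays), Gypc (0.05 and -0.84 in the same order) and Synpo (0.31 and -0.19) the arrays were not all on 1 side. The difference between the genotypes was not tested, because it is made of the genotype contrasts that chose these genes.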

How the results depend on the processing

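Between Treg and Teff, 1 member and 48 genes in all passed. Without averaging the pairs (12 arrays as separate samples) 2 members and 388 genes passed, Trib2 being the second member. With pairs as a random block 149 genes passed, and with trend and robust settings 98. The replicate block, with the replicate number as a term across Treg and Teff, gave 0 members and 0 genes (Tmem154 adjusted p = 0.0774 by limma), and these numbers did not pair Treg with Teff arrays in the check of residuals. Leaving out 1 pair gave 0 to 1 members and 0 to 122 genes in all. Signs turned for Synpo without Treg pair 1 (-0.05), Treg pair 2 (-0.03), Teff pair 1 (-0.02) or Teff pair 3 (-0.15), for Cytip without Treg pair 3 (-0.25) or Teff pair 1 (-0.17), and for Pdlim1 without Teff pair 2 (0.13). Over the fits that leave out 1 pair the difference ran from -0.15 to 0.36 for Synpo, from -0.25 to 0.29 for Cytip and from -0.51 to 0.13 for Pdlim1. The cause was not tested, beyond the smaller number of samples in fits that leave out a pair or add a block. Among related genes 4 passed in Treg with the replicate block within each cell type and 0 without it. Leaving out each array gave 0 in both cell types, the same as the main fit without the block, and was not set against the 4 calls. The block changed no other call. The genotype differences of the 9 members kept their sign in all 6 alternatives each. Where a pair was left out this was fixed beforehand, because all pairs of each member lay on 1 side of 0. It is therefore no sign of robustness. The mean of the probes gave smaller differences for the 4 members with several probes. These were Synpo (1.56 in Treg, 1.32 in Teff), Trib2 (-0.61, -0.73), Ercc6l2 (1.55, 0.24) and Xpc (-0.12, -0.45).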

Other observations

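Genes most like the members over the arrays differed between the genotypes to unequal extents. They were picked by correlation with members that had been chosen for genotype differences, so their values are a description. Lif was higher in all 6 pairs, by 3.04 ± 1.09 in Treg and 3.04 ± 1.05 in Teff on the log2 scale (SD, n = 3 pairs each). Rab27a was lower in all 6, by -1.15 ± 0.27 in Treg and -0.60 ± 0.15 in Teff, and Rcan3 by -0.64 ± 0.23 and -0.67 ± 0.20. Tespa1 was higher in the 3 Treg pairs (1.40 ± 0.23) and varied in Teff (0.10, -0.11 and 1.16). Tox was higher in all 6 pairs (1.02 ± 0.41 in Treg and 0.53 ± 0.39 in Teff). The neighbours of Xpc were closer to 0 in Treg, with Exd2 at -0.14 ± 0.19 and Primpol at -0.16 ± 0.15, and lower in the 3 Teff pairs, with -0.41 ± 0.07 and -0.45 ± 0.22.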
